A study of Mus musculus with 6 samples.

Results

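The mitochondrial carriers of the Slc25 family were examined in newborn mouse epidermis as every gene whose symbol begins with Slc25a in the table of normalized counts: 33 genes of the 12894 in the table. Mouse gene names hold 47 such symbols, and the other 14 were not analysed here. The study profiled epidermis, taken off the dermis at postnatal day 0, by bulk RNA sequencing in 6 C57BL/6 animals, 3 controls and 3 labelled as Hnrnpu knockouts made with loxP and Cre. Control 1 is labelled wild type, and controls 2 and 3 carry the genotype label "Heterogenous", read here as heterozygous. The sources used here name neither the Cre driver nor any other allele of the groups. Hnrnpu encodes a nuclear RNA-binding protein. Each title carries its own number, taken as an animal number. If the libraries did not come from separate animals, the p-values measure only the spread between these samples, which may be technical.

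Slc25 proteins sit in the inner mitochondrial membrane, where each moves a small set of molecules between matrix and cytosol. They exchange ADP for ATP, bring in phosphate, pass malate, citrate, aspartate and glutamate in shuttles that link mitochondrial and cytosolic metabolism, and supply the matrix with amino acids, nucleotides and cofactors that it cannot make. A few members lie elsewhere, such as Slc25a17 in peroxisomes and Slc25a46 in the outer mitochondrial membrane. In epidermis, keratinocytes use these routes to feed energy, lipid and nucleotide synthesis as they divide and differentiate.

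The libraries held an estimated 6460000 to 9110000 assigned reads, and 1 read was worth 0.755 to 1.70 normalized counts. Counts of Hnrnpu itself were 1450.3, 1318 and 1159.9 across controls 1 to 3, against 1565, 1342 and 1036 across the labelled knockouts 1 to 3, a difference that did not pass the test (limma adjusted p = 0.976). The labels do not say which part of the gene was deleted, and the count spans the whole gene. Directions below therefore rest on the labels. The 10 keratinocyte markers were all in the table, with summed levels of 735566 to 775077 in controls and 564363 to 810082 in the labelled knockouts. Krt1 and Krt10 carry most of that sum. Within the list Krt14, a keratin of the basal layer, was 9.26-fold and Sfn 2.31-fold higher (limma adjusted p = 0.00547 and 0.00583). Krt5 and Trp63, also of the basal layer, lay on the other side, at 64.3% and 66.5% of control, and did not pass (0.282 and 0.203). Melanocyte markers moved with the groups: 11 of 12 were in the table, all 11 were higher, and their sum went from 494 to 742 up to 3222 to 5223. Of 10 dermal fibroblast markers, 6 were in the table, 4 higher and 1 lower, with sums of 1318 to 2641 in controls and 603 to 885 in the labelled knockouts. Most of the control sum was Postn, the lower marker (1171 to 2243 against 44.2 to 176). Col1a1, Col1a2, Col3a1 and Col6a3 rose 3.13- to 14.00-fold, against the direction of the sum, and Dcn did not pass. Red blood cell markers were low, with 4 of 12 in the table and sums of 27.9 to 129.7 against 0.935 to 695, the highest in knockout 2, while Hemgn was at 0 in the labelled knockouts. Knockout 2, the library of lowest estimated depth, was also highest for Pecam1 of endothelial cells (59.5, elsewhere 2.66 to 11.1). The same held for Csf3r and Ngp of neutrophils, at 158 and 143 against at most 17.7 and 0.935 elsewhere. Of 10 hair follicle markers, 8 were in the table, with Sox9 6.80-fold higher, Krt15 at 0.9% of control and sums of 2019 to 4325 against 616 to 2605. Most of the control sum was Krt15 (1833 to 4009) and most of the other Sox9 (441 to 2261). The remaining 6 markers did not pass. Of 9 markers of Langerhans cells and macrophages, 8 were in the table, with Cd68 higher, Epcam and Csf1r lower and sums of 941 to 1354 against 432 to 1106, and Cd207 was not among them. Epcam made up most of the control sum (589.7 to 744 against 248 to 389.6). Cd74, H2-Aa, H2-Ab1, Ptprc and Adgre1 did not pass, and of these all but Adgre1 overlapped between the groups. Of 6 T cell markers, Cd3e alone was in the table, and it was lower (14.7 to 41.6 against 0.935 to 3.4). None of 8 skeletal muscle markers and 1 of 7 fat markers (Cidea) was in the table, where its sum was 3.78 to 7.97 against 35.5 to 88.5. Xist was at 5656 and 4758 normalized counts in knockout 2 and 3 and at most 3.27 in the other 4 libraries. The Y chromosome genes Ddx3y, Eif2s3y and Kdm5d were at 0 in knockout 2 and 3 and at 157 to 646 in the other 4. By these genes knockout 2 and 3 read as female and the rest as male, so sex is largely confounded with group. Only the fit with knockout 1 as the lone knockout, given below, compares libraries of the same sex. The part of other cell types, or of sex, in the carrier results was not tested. In bulk tissue, fewer cells of a type and less RNA per cell cannot be told apart.

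Of the 33 carrier genes, 9 passed the test, 6 higher and 3 lower in the labelled knockouts (limma on log2(value + 1), Benjamini-Hochberg adjusted p under 0.05). Slc25a24, Slc25a33, Slc25a12, Slc25a13, Slc25a39 and Slc25a3 rose, and Slc25a30, Slc25a51 and Slc25a15 fell. Over all 12872 genes tested, 33.6% passed, 17.7% higher and 15.9% lower. The share of carriers that passed, 27.3%, is near that background and is not a result about the family. The groups did not overlap for 13 carriers, or 39.4%, against 50.8% of all genes. The median log2 difference of the carriers was -0.15, beside -0.02 over all genes. With library totals set equal, which moves the median of all genes to -0.36, 3 carriers were higher and 6 lower, so the split depends on the scaling. The background there was 35%, with 11.2% higher and 23.8% lower. Leaving out control 3 left 5 calls, 4 higher and 1 lower, and leaving out knockout 2 left 4, 3 higher and 1 lower. Without control 1, 2 or 3 the share of all genes that passed was 20.9%, 20.7% and 20.5%, and without knockout 1, 2 or 3 it was 30.1%, 25.3% and 34.8%. It was 44.9% with a replicate block on adjacent animal numbers, and 21.2% with knockout 1 as the lone knockout.

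**Figure D1:**
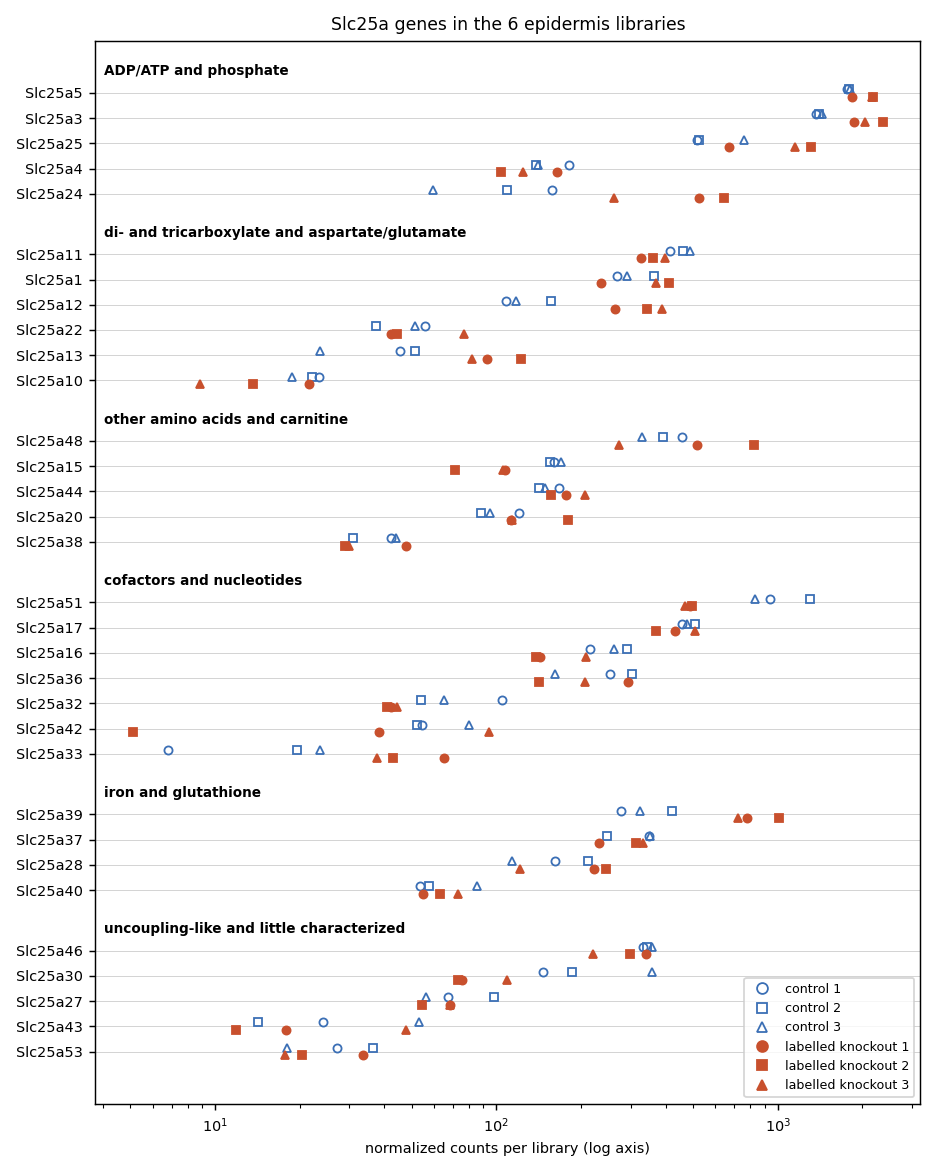
Normalized counts of the Slc25a genes described here (log x axis) in each of the 6 libraries, grouped by the molecules they carry. Open blue symbols are controls 1 to 3 and filled red symbols the labelled knockouts 1 to 3. For Slc25a24, Slc25a12 and Slc25a39 all red symbols lie above all blue ones, and for Slc25a51 all lie below.

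**Figure D2:**
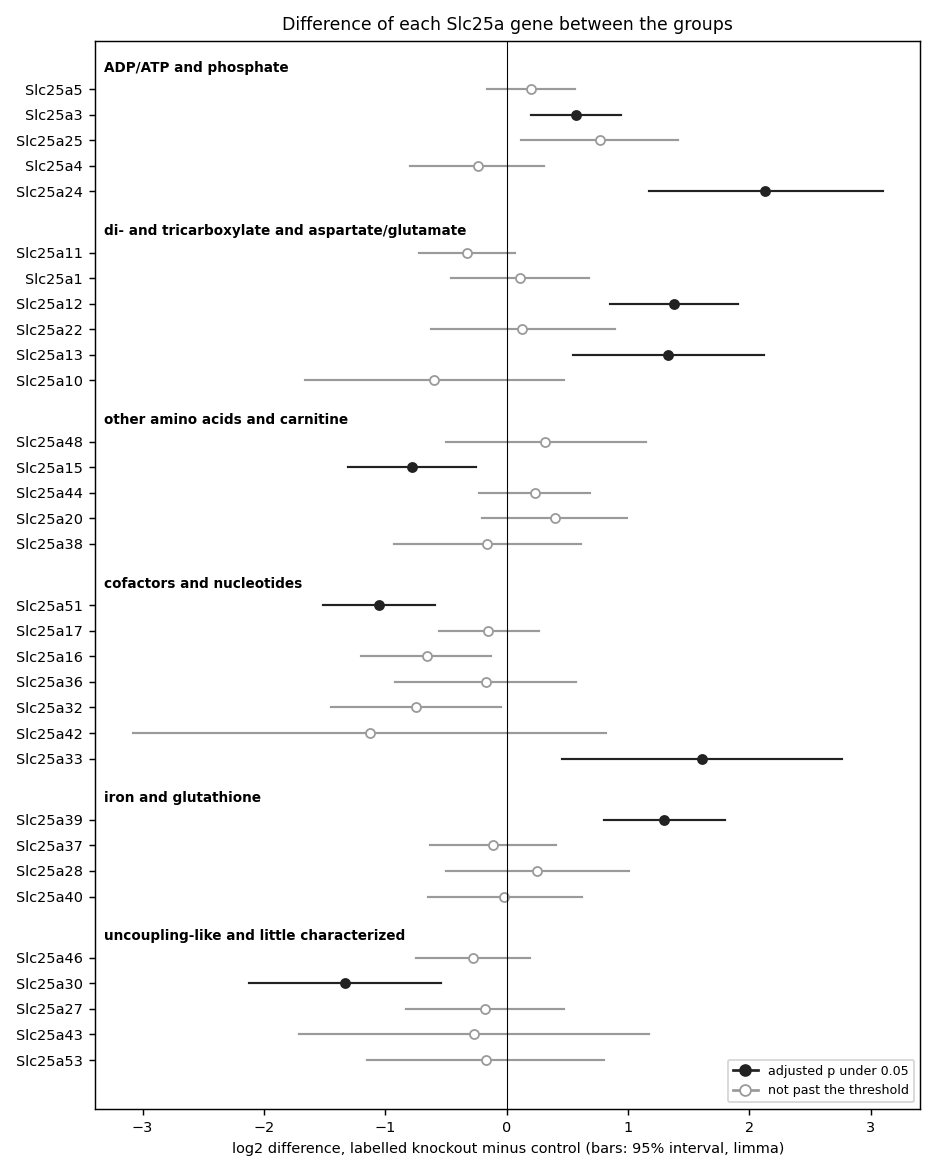
Log2 difference of each Slc25a gene described here, labelled knockout minus control (x axis), with its 95% interval from limma (n = 3 and 3). Black points are the 9 genes past an adjusted p of 0.05 and open grey points the others.

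The most abundant members were an ADP/ATP carrier and the phosphate carrier. Slc25a5, the main ADP/ATP exchanger of most dividing tissues, had the highest level per kb of transcript, 1440.2 ± 20.1 normalized counts per kb in controls and 1663 ± 161 in the labelled knockouts (SD, n = 3 each). Slc25a3, the phosphate carrier that feeds ATP synthase, came next with 871 ± 21.8 and 1297 ± 159. On this per-length scale the pair made up 29.9 to 31.2% and at most 18.9% of the family's summed level in controls. Slc25a3 had 1369.5, 1402 and 1439.7 normalized counts across controls 1 to 3, against 1863, 2368 and 2042 across the labelled knockouts 1 to 3. The groups did not overlap, and the gene was higher by 0.57 ± 0.16 on the log2 scale (SE, 95% interval 0.20 to 0.94, limma adjusted p = 0.0285). This call was the least stable of the 9. Its adjusted p ran from 0.0155 to 0.224 over 17 alternatives and missed the threshold in 8, among them library totals set equal (log2 difference 0.23), quantile normalization (0.165) and leaving out control 1, 2 or 3 (0.0942, 0.0948 and 0.082) or knockout 2 (0.0567).

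The window of 250 bases before the RefSeq start of Slc25a3 (GRCm38.p6) held matches to 2 motifs common in promoters of mitochondrial genes. It is shown because this gene is the most abundant carrier that rose. The first line has the nuclear respiratory factor 1 motif, GCGC and TGCGC with any base between them, in capitals (chr10:91124147-91124206, minus strand). The second has CCGGAAG, the core of ETS factor motifs (chr10:91124111-91124167).
Slc25a3 nuclear respiratory factor 1 motif: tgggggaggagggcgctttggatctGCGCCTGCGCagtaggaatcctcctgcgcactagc
Slc25a3 ETS motif: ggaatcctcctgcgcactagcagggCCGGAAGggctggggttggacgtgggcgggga
Both strands were searched in all windows. Of the 33 carriers, 26 had a window. The first motif was in 1 of the 26, beside 9.5% of the 9034 tested genes with a window and 3.74% of all 32851 windows. The second was in 5, namely Slc25a3, Slc25a4, Slc25a17, Slc25a20 and Slc25a38, beside 16.1% of tested genes and 6.91% of windows. A match is a run of letters and not a known binding site.

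Slc25a5 had 1758, 1796 and 1804 normalized counts across controls 1 to 3, against 1833, 2190.1 and 2165 across the labelled knockouts 1 to 3. The groups did not overlap, yet the log2 difference of 0.20 ± 0.16 missed the threshold (interval -0.16 to 0.56, limma adjusted p = 0.339). The gene lies on the X chromosome, and its highest values were in knockout 2 and 3, the libraries with high Xist. Whether sex has a part in its values was not tested. Its paralog Slc25a4, the ADP/ATP exchanger of heart and muscle, had 181, 138 and 141 in controls and 164, 104 and 124 in the labelled knockouts. These values overlap, and the log2 difference was -0.24 ± 0.24 (adjusted p = 0.455). Per kb, Slc25a4 made up 5.2 ± 0.9% of the pair in controls and 4.0 ± 1.3% in the labelled knockouts. The 2 genes are similar in sequence, so how reads were shared between them is uncertain.

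Calcium-regulated carriers that exchange ATP-magnesium for phosphate set the matrix pool of adenine nucleotides. Slc25a24 showed the largest rise in the family: it had 158, 109 and 59.7 normalized counts across controls 1 to 3, against 525, 647 and 261 across the labelled knockouts 1 to 3. The lowest of the latter exceeded the highest control. The log2 difference was 2.13 ± 0.42 (interval 1.17 to 3.10, or 4.38-fold, limma adjusted p = 0.00673), and the call held in all 17 alternatives (1.76 to 2.52, adjusted p 0.000325 to 0.0249). Control 3 and knockout 3, whose animal numbers are adjacent, were the lowest of their groups.

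The paralog Slc25a25 had 517, 524 and 762 normalized counts in controls and 670.4, 1317 and 1151 in the labelled knockouts. Control 3 lay above knockout 1, and the log2 difference of 0.77 ± 0.28 missed the threshold (adjusted p = 0.066, range 0.0168 to 0.68 over 17 alternatives). It passed with a replicate block on adjacent numbers (0.0196) and also without knockout 1 (0.0168, log2 difference 1.06). Slc25a24 made up 15.4 ± 7.9% of this pair per kb in controls and 30.9 ± 12.6% in the labelled knockouts, with 7.0 to 22.7% and 17.8 to 42.9% as the ranges. The ranges overlap, and this share was not tested. The window before 1 annotated start of Slc25a25 held the cyclic AMP element TGACGTCA (chr2:32424184-32424241, minus strand), shown because the element is the classic site of a signal-responsive promoter.
Slc25a25 cyclic AMP element: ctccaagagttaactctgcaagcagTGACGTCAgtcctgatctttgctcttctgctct
The element was in 2 of the 26 carriers with a window, Slc25a25 and Slc25a36, beside 3.18% of tested genes and 1.55% of windows.

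**Figure D3:**
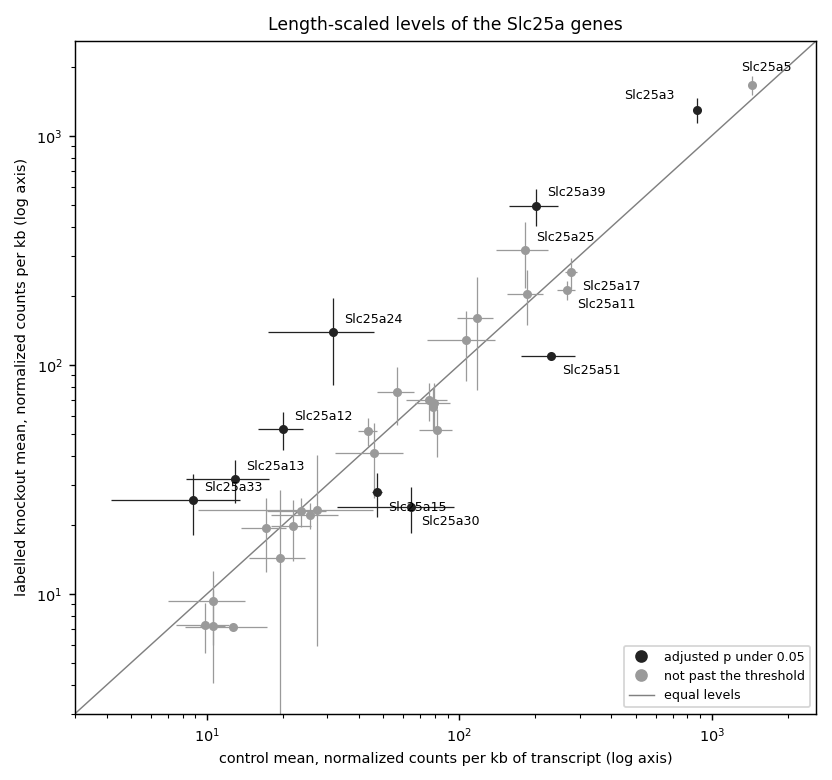
Mean level of each Slc25a gene in controls (x axis) and in the labelled knockouts (y axis), in normalized counts per kb of the principal transcript, on log axes, with bars of 1 SD (n = 3 each; bars that run past the lower edge are cut there). Slc25a5 and Slc25a3 stand at the top right, Slc25a24, Slc25a12 and Slc25a39 above the line of equal levels and Slc25a51 below it.

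Both aspartate/glutamate carriers rose. They export aspartate from mitochondria in exchange for glutamate, the step that drives the malate-aspartate shuttle, which carries reducing equivalents of NADH into mitochondria. Slc25a12 had 108, 157 and 117 normalized counts across controls 1 to 3, against 265, 344 and 387 across the labelled knockouts 1 to 3. The groups were far apart, with a log2 difference of 1.38 ± 0.23 (interval 0.85 to 1.91, 2.60-fold, limma adjusted p = 0.00343). The call held in all 17 alternatives, with differences of 1.04 to 1.54 and adjusted p of 0.00134 to 0.048. Slc25a13, also called citrin, had 45.3, 51.4 and 23.7 in controls and 92.5, 122 and 82.1 in the labelled knockouts. The groups again did not overlap, and the difference was 1.33 ± 0.35 (interval 0.55 to 2.12, adjusted p = 0.0197). That call was lost without control 3 (0.0556), without knockout 2 (0.0598), with library totals set equal (0.0601) and with knockout 1 alone (0.122), in a range of 0.0055 to 0.122 over 17 alternatives. Slc25a13 made up 38.4 ± 8.5% of the pair per kb in controls and 37.9 ± 6.7% in the labelled knockouts, so their balance differed by less than the spread between libraries.

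The Slc25a13 window held an E-box, CACGTG, whose letters read alike on both strands (chr6:6217268-6217323, minus strand). Those of Slc25a33 (chr4:149774268-149774300, minus strand) and Slc25a15 (chr8:22398324-22398379, minus strand), described further on, held one as well. They are printed together because 2 of these genes rose and 1 fell.
Slc25a13 E-box: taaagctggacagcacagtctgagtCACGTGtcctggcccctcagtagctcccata
Slc25a33 E-box: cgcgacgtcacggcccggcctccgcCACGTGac
Slc25a15 E-box: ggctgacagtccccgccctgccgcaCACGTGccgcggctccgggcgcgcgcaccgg
The E-box ended 119, 2 and 71 bases before the start. It was in 5 of 26 carriers, these 3 with Slc25a1 and Slc25a36, beside 10% of tested genes and 6.02% of windows. The composite element TGATGNAAN, bound by ATF4 with C/EBP partners, was in 0 of the 26, beside 2.53% of tested genes and 3.44% of windows. No match says only that these letters are not in these windows.

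The other carriers of organic acids did not pass. Slc25a11, which exchanges oxoglutarate for malate and is the partner of the aspartate/glutamate carriers in the shuttle, had 415, 462 and 487 normalized counts in controls and 328, 362 and 398 in the labelled knockouts. All 3 latter values were below the controls, but the log2 difference of -0.33 ± 0.17 missed the threshold (interval -0.72 to 0.07, limma adjusted p = 0.173). With library totals set equal it passed as lower (-0.67, 0.0304), the lowest adjusted p over 17 alternatives that reached 0.38. Slc25a10, a dicarboxylate carrier, had 18.8 to 23.4 in controls and 8.87 to 21.5 in the labelled knockouts, with at most 31 estimated reads in any library, close to the lowest maximum of 30.0 that any gene of the table has. Slc25a1, which exports citrate for lipid synthesis, had 269, 365 and 292 in controls and 236, 412 and 369 in the labelled knockouts, a log2 difference of 0.11 ± 0.25 (adjusted p = 0.756). Slc25a22, a glutamate carrier, overlapped between groups (0.13 ± 0.33, adjusted p = 0.774).

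Among carriers of other amino acids and of carnitine, 1 of 5 passed, or 20%, beside 33.6% of all genes tested. Slc25a15, which exchanges ornithine and citrulline, had 160.1, 155 and 170.0 normalized counts across controls 1 to 3, against 107, 71.5 and 106 across the labelled knockouts 1 to 3. The controls were close together and all lay above the other group. The gene fell by 0.78 on the log2 scale (SE 0.23, interval -1.31 to -0.25, 58.1% of control, limma adjusted p = 0.0322). The call was lost without control 1, 2 or 3 (0.0902, 0.0857 and 0.103), without knockout 2 (0.0686) and with knockout 1 alone (0.141), with adjusted p from 0.018 to 0.141 over 17 alternatives. Slc25a38, the glycine carrier that heme synthesis depends on, had 31 to 44.1 normalized counts in controls and 28.9 to 47.7 in the labelled knockouts (-0.16 ± 0.34, adjusted p = 0.74). Slc25a20, which carries acylcarnitines into mitochondria for fatty acid oxidation, had 120.1, 88.5 and 94.8 against 113, 180.3 and 114 (0.40 ± 0.26, adjusted p = 0.259). The groups overlapped for both, as they did for Slc25a44, a carrier of branched-chain amino acids (0.23 ± 0.20), and for Slc25a48 (0.32 ± 0.36). Slc25a48 had 458, 392 and 330.2 in controls against 516, 825 and 274, the widest spread lying within the labelled knockouts.

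Cofactor and nucleotide carriers split. Slc25a51, which brings NAD into mitochondria, had 939, 1302 and 834 normalized counts across controls 1 to 3, against 489, 498 and 469 across the labelled knockouts 1 to 3. The latter lay within a narrow band below every control. The gene fell by 1.05 on the log2 scale (SE 0.20, interval -1.51 to -0.59, 48.3% of control, limma adjusted p = 0.00571), and the call held in all 17 alternatives (-1.39 to -0.87, adjusted p 0.00235 to 0.0438). On the per-kb scale it went from rank 5 in the family, at 231 ± 55.3, to rank 11, at 109 ± 3.38.

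Slc25a33, a pyrimidine nucleotide carrier, rose from a low level, from 6.8, 19.5 and 23.7 normalized counts across controls 1 to 3 to 65, 43 and 37.5 across the labelled knockouts 1 to 3. The groups did not overlap, with a difference of 1.61 ± 0.50 (interval 0.46 to 2.76, limma adjusted p = 0.0391). Its values stood on 9 to 70 estimated reads. The call missed the threshold without control 1 (0.0935, log2 difference 1.10), control 2 (0.0677), knockout 1 (0.112) or knockout 2 (0.0731), with library totals set equal (0.0887) and with knockout 1 alone (0.0948, difference 2.06), in a range of 0.0313 to 0.112 over 17 alternatives. Its paralog Slc25a36 had 253, 304 and 162 against 295, 142 and 207 (-0.17 ± 0.33, adjusted p = 0.704). Per kb, Slc25a33 made up 6.9 to 28.9% of this pair in controls and 33.4 to 45.7% in the labelled knockouts, ranges that do not overlap, a difference that was not tested.

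Slc25a32 imports folate and flavin cofactors. It had 105, 54 and 65.4 normalized counts in controls and 42.1, 40.8 and 44.4 in the labelled knockouts, 59.5% of control by the fit. Every value of the latter was below the controls, but the difference of -0.75 ± 0.31 missed the threshold (interval -1.45 to -0.05, adjusted p = 0.0914). It passed with library totals set equal (-1.08, 0.0466), where adjusted p over 17 alternatives ran up to 0.308. Slc25a16, linked to coenzyme A, had 215, 291 and 262 against 143, 138 and 208, again without overlap (-0.66 ± 0.23, adjusted p = 0.0568). It passed as lower with a replicate block (0.031), with library totals set equal (0.0259), with array weights (0.0429) and without knockout 3 (0.0213, difference -0.85), and otherwise ranged up to 0.179.

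Slc25a42, which carries coenzyme A into mitochondria, had 54.4, 52.2 and 80.1 normalized counts in controls and 38.3, 5.1 and 94.3 in the labelled knockouts 1 to 3. The value of knockout 2 stood on 3 estimated reads, and no direction held over the libraries (-1.13 ± 0.85, interval -3.08 to 0.82, adjusted p = 0.327). The peroxisomal carrier Slc25a17 overlapped between groups, with a difference of -0.15 ± 0.18 (adjusted p = 0.561).

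The glutathione carrier Slc25a39 rose, from 277, 422 and 323 normalized counts across controls 1 to 3 to 776, 1011 and 723 across the labelled knockouts 1 to 3. The groups did not overlap. The log2 difference was 1.30 ± 0.22 (interval 0.80 to 1.80, 2.46-fold, limma adjusted p = 0.00348), and the call held in all 17 alternatives (0.96 to 1.47, adjusted p 0.000701 to 0.0278). Its paralog Slc25a40 had 53.6, 57.6 and 85 against 55, 62.9 and 73.2, with a difference of -0.02 ± 0.28 (interval -0.65 to 0.62, adjusted p = 0.97). Per kb, Slc25a39 made up 89.4 ± 3.1% of the pair in controls and 95.5 ± 1.1% in the labelled knockouts, with ranges of 86.3 to 92.4% and 94.2 to 96.4%. The iron carriers, or mitoferrins, did not pass: Slc25a37, the form of red cell precursors, had 348, 248 and 351 against 231, 313 and 332 (-0.11 ± 0.23), and Slc25a28, the general form, 162, 212 and 114 against 223, 245 and 121 (0.25 ± 0.33). Their intervals were -0.63 to 0.41 and -0.50 to 1.01. Hbb-bs, a globin gene of red cells, had at most 80.1 normalized counts in 5 libraries and 486 in knockout 2, where it lay above both mitoferrins.

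Among uncoupling-like and little characterized members, Slc25a30 fell from 146, 186 and 358 normalized counts across controls 1 to 3 to 75.7, 73.2 and 109 across the labelled knockouts 1 to 3. Control 3 was the highest, and the groups did not overlap. The log2 difference was -1.33 ± 0.35 (interval -2.12 to -0.54, 39.9% of control, limma adjusted p = 0.0202). The call was lost without control 3 (0.057, difference -0.95), without knockout 1 (0.0547), without knockout 2 (0.0566) and with knockout 1 alone (0.0738), in a range from 0.00267. Slc25a27, Slc25a43, Slc25a46 and Slc25a53 overlapped between the groups, with differences of -0.28 to -0.17. Of these, Slc25a43 and Slc25a53 lie on the X chromosome, as Slc25a5 does. Slc25a43 had 24.2, 14.2 and 53.1 normalized counts across controls 1 to 3, against 17.8, 11.9 and 47.7 across the labelled knockouts 1 to 3, so control 3 and knockout 3 were high together.

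Of the 24 carriers that missed the threshold, 14 had a 95% interval that lay within a 2-fold change in either direction, and 10 had wider ones. The second set includes Slc25a10, Slc25a16, Slc25a25, Slc25a32 and Slc25a42, for which a 2-fold difference cannot be set aside. All these intervals hold for the reported scaling only. With library totals set equal the median of the carriers moved from -0.15 to -0.49. Slc25a11, among the 14, then passed as lower (-0.67 ± 0.19, limma adjusted p = 0.0304). Summed over all 33 genes, carriers held 9343, 10039 and 9629 normalized counts in controls and 10343, 12530.4 and 11104 in the labelled knockouts. As a share of each library's total this was 0.134 ± 0.004% and 0.124 ± 0.009% (SD, n = 3 each), so the means of the sum and the share went in opposite directions. The shares overlapped between the groups, at 0.129 to 0.137% and 0.114 to 0.131%. Their difference went from 0.010 to 0.005 percentage points without knockout 2.

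The genes that work beside the carriers were taken from lists of their pathways. Over all lists 137 genes were tested, of which 22 were higher and 24 lower, or 33.6%, the same as the background. With library totals set equal, 15 were higher and 32 lower, so this split too depends on the scaling. The malate-aspartate shuttle and citrate export list had 8 of 11 members, or 72.7%, past the threshold, 5 higher and 3 lower, with a median of 0.49. That median was 0.15 with library totals set equal, 0.18 with quantile normalization, 0.33 without knockout 2 and 0.12 with knockout 1 as the lone knockout. Got2, the mitochondrial aspartate transaminase that makes the aspartate exported by Slc25a12 and Slc25a13, was higher by 1.06 ± 0.18, from 635 to 706 in controls to 1240.1 to 1642 normalized counts (limma adjusted p = 0.00318). Gpd2, of the glycerol phosphate shuttle, was higher by 2.12 ± 0.37, while Idh2 and Idh1, which make NADPH, were lower by -1.15 ± 0.17 and -1.13 ± 0.27. The cytosolic shuttle enzymes Got1 and Mdh1 did not pass (0.19 ± 0.30 and -0.42 ± 0.20). Mdh1 passed as lower with library totals set equal (limma adjusted p = 0.0398) and without knockout 3 (0.0384), in a range up to 0.318. With library totals set equal or without control 1 or 2, 2 members were higher, and 3 without control 3 or knockout 2. Without control 1, 1 member was lower, Idh2, and Idh1 missed the threshold (0.0538). Acly, at 51.7% of control in the reported fit (limma adjusted p = 0.0281), missed it there as well.

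In the mitochondrial folate and glycine list, 4 of 10 rose and Gldc fell, or 50% past the threshold, beside 33.6% of all genes tested. Mthfd2, Mthfd1l and Shmt2, enzymes of the matrix folate cycle, differed by 5.44 ± 0.27, 3.68 ± 0.37 and 3.51 ± 0.15 (limma adjusted p = 1.82e-05, 0.000348 and 1.82e-05). Aldh1l2, of the same cycle, went from 89.7 to 122 normalized counts up to 1577 to 1997. Their carrier Slc25a32 was on the lower side, as given above. Sfxn1, which imports serine for that cycle and belongs to another carrier family, was higher by 0.81 ± 0.18, from 171, 204 and 205 normalized counts to 342, 319.9 and 354. Its call was lost with library totals set equal (adjusted p = 0.121) and with knockout 1 alone (0.056). Among 16 other membrane channels and carriers, 3 were higher and 3 lower, or 37.5%, near the 33.6% of all genes. Vdac3, an outer membrane pore, differed by 1.54 ± 0.23, Sfxn2 by -2.24 ± 0.30 and Micu2, a subunit of the calcium uniporter, by -0.76 ± 0.16. With library totals set equal, 1 member was higher.

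In the glutamate, ornithine and proline list, 2 of 10 were higher and 3 lower, or 50%, beside 33.6% of all genes tested. Pycr1 and Aldh18a1, which make proline, rose by 4.09 ± 0.28 and 2.72 ± 0.23. Arg2, the mitochondrial arginase that makes ornithine, and Prodh, which breaks down proline, were lower by -3.33 ± 0.40 and -2.05 ± 0.29 (limma adjusted p = 0.000824 and 0.00147). The ornithine carrier Slc25a15 was lower too, and a link between it and either side of this list was not tested. Of 15 genes of the carnitine shuttle and fatty acid oxidation, 3 were higher and 1 lower, or 26.7%, near the 33.6% of all genes. Acadl was up by 2.34 ± 0.30, Cpt1c by 3.31 ± 0.46 and Etfb by 0.64 ± 0.20, and Acadm, the medium-chain dehydrogenase, was at -1.75 ± 0.29. Cpt1a, Cpt2 and Crat, also in this list, did not pass (limma adjusted p = 0.741, 0.245 and 0.872). Etfb passed in 1 of the 6 fits that left out a library, the one without knockout 3, and was lost with library totals set equal (0.304).

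Of 21 heme and iron-sulfur genes, 5 were lower and 1 higher, or 28.6%, near the 33.6% of all genes, and neither mitoferrin passed. Fech, Alad and Ppox, enzymes of heme synthesis, were lower by -1.19 ± 0.18, -2.03 ± 0.33 and -1.08 ± 0.25, and Cpox, also of that pathway, was higher by 1.78 ± 0.18. The lower members numbered 2 without control 3, where Ppox missed the threshold (limma adjusted p = 0.0534). In the glutathione list 1 of 8 was higher and 2 lower, or 37.5%, again near the background. Chac1, which degrades glutathione, rose by 3.44 ± 0.41, while Ggct and Gss, the latter glutathione synthetase, were lower by -2.11 ± 0.43 and -1.29 ± 0.35. The Gss call was lost without control 1, 2 or 3 (0.0781, 0.0772 and 0.0685) and without knockout 2 (0.0522), which left 1 lower member.

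Among 15 genes of coenzyme A, thiamine, S-adenosylmethionine and NAD synthesis, 2 were higher and 4 lower, or 40%, beside 33.6% of all genes tested. Nadk2, the mitochondrial NAD kinase, was lower by -1.86 ± 0.30, from 62.9 to 98.3 normalized counts in controls to 18.7 to 23.4. The NAD carrier Slc25a51 was lower too, while Nadk was higher, and a link between them was not tested. Mat2a, which makes S-adenosylmethionine, rose from 463 to 713 up to 1299 to 2206 normalized counts. The calls of Nadk (0.53 ± 0.16) and Pank1 (-1.10 ± 0.34) were weak: that of Nadk was lost without any of the 6 libraries in turn (limma adjusted p = 0.0501 to 0.115), and that of Pank1 without any but knockout 3 (up to 0.141). Only Nadk2 and Mat2a were then left in the fits without control 1, control 2, knockout 1 or knockout 2. With library totals set equal Nadk differed by 0.19 and did not pass (limma adjusted p = 0.466). It also missed the threshold with quantile normalization (0.0635) and with eBayes without trend (0.0604). Pank1 missed it with quantile normalization (0.0505), eBayes without trend (0.0564) and array weights (0.0541).

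The import machinery that inserts carriers into the inner membrane passed for 1 of 16 genes, or 6.25%, beside 33.6% of all genes tested. That gene was Timm8a1, higher by 2.06 ± 0.37 (limma adjusted p = 0.0045), and 2 were higher without knockout 1. Of 12 mitochondrial biogenesis factors, 1 passed, or 8.33%. Twnk, the mitochondrial DNA helicase, was lower (-1.19 ± 0.37, adjusted p = 0.0369). Its call was kept in 1 of the 6 fits that left out a library, the one without knockout 1. Family members under other symbols were Mtch1, lower by -0.86 ± 0.20 (adjusted p = 0.0143, lost without control 2 or 3 at 0.0594 and 0.0548), Mtch2 (-0.16 ± 0.19) and Ucp2, an uncoupling protein (0.90 ± 0.46, adjusted p = 0.158). Ucp2 had 277, 339 and 118 normalized counts across controls 1 to 3, against 441, 660.1 and 246. These values overlap between groups, but each labelled knockout lay above the control with the adjacent number. With the replicate block Ucp2 passed as higher (limma adjusted p = 0.00462), and in none of the other alternatives.

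**Figure D4:**
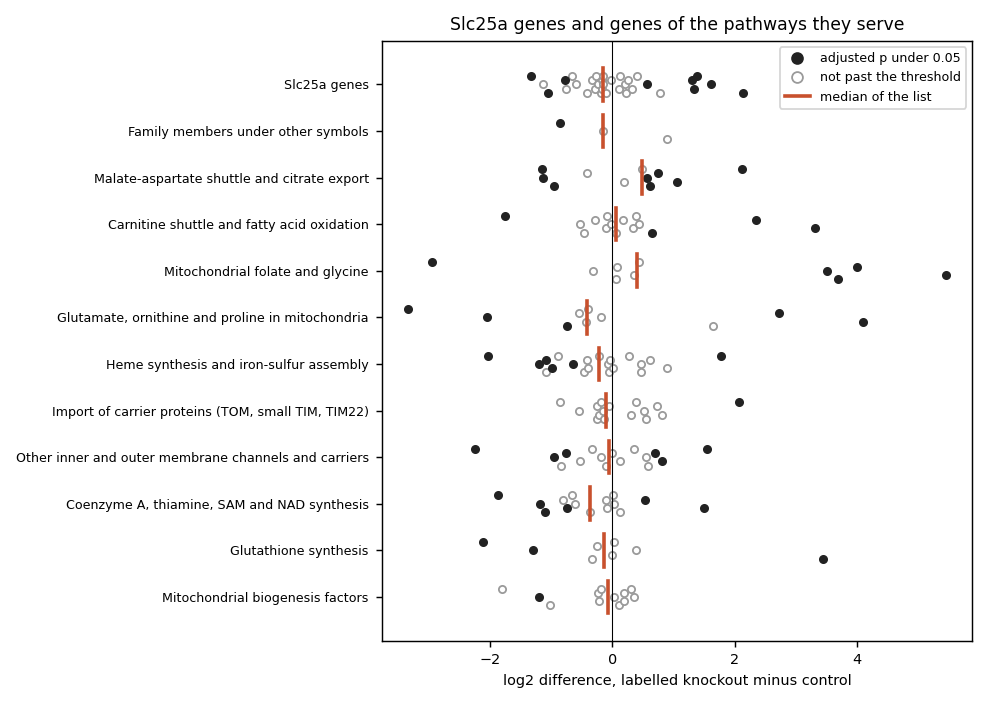
Log2 difference, labelled knockout minus control (x axis), of each Slc25a gene and of each tested gene in the 11 related lists. Black points passed an adjusted p of 0.05, open points did not, and red bars are list medians. The median is -0.15 for the carriers and 0.49 for the shuttle list (0.15 with library totals set equal), and the widest spread is in the folate and glycine list.

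**Figure D5:**
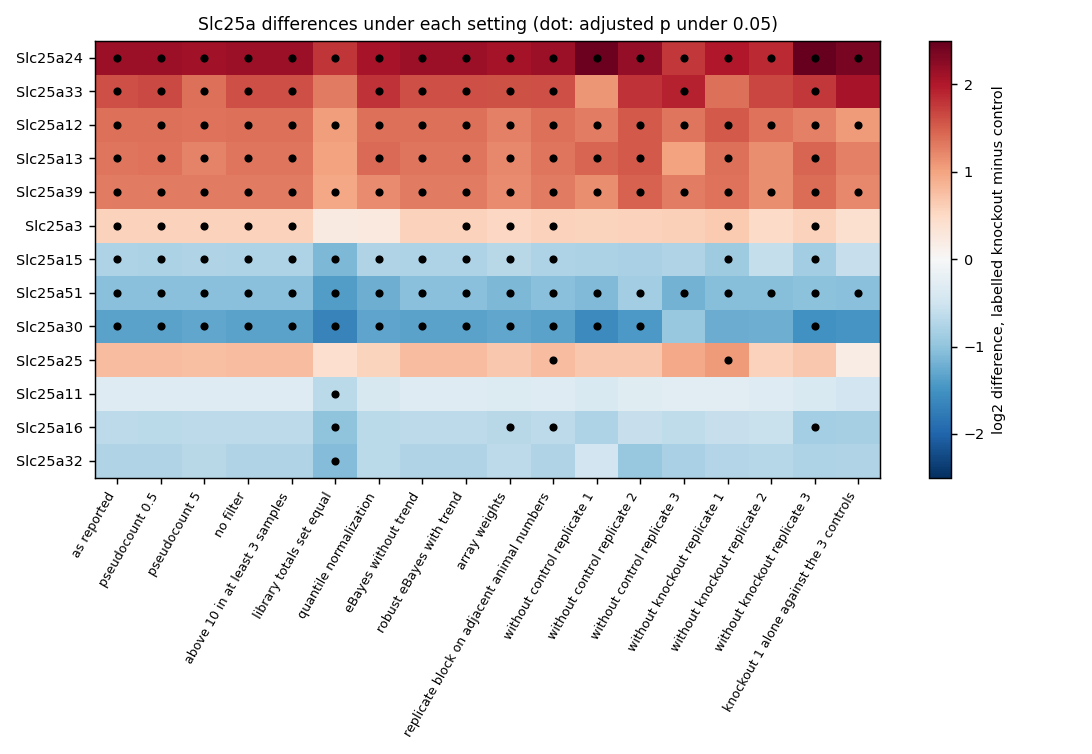
Log2 difference (colour) of the 9 carriers that passed and of 4 that passed under some alternative, in the reported fit (first column) and the 17 alternatives. A dot marks an adjusted p under 0.05. Slc25a24, Slc25a12, Slc25a39 and Slc25a51 have a dot in every column.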

How the data were processed

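Bulk RNA sequencing of 6 epidermis libraries was used. The authors deposited normalized counts per gene, a signal that is never negative, with 1 row per sample. TopHat2 2.1.0, Partek 9.0.20.0202 and the build mm39 are named, without their roles, in the submitters' processing notes. How values were normalized, and whether counting used strand, is not given in the sources used here. Reads of overlapping or antisense genes may therefore be mixed. From 81.8 to 83.9% of low values (up to 20 reads) were whole multiples of 1 step per library, within 0.02 of a step. Whole reads were therefore not recovered, no count model was used, and depths are estimates. The lowest maximum of any gene was 30.0 estimated reads, a sign of a filter before deposit.

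Symbols were matched by Ensembl ID (12771 of 12894). Genes above 1 in at least 3 libraries were tested (12872, all 33 carriers included) as log2(value + 1), which understates the change of low genes, with limma 3.58.1 in R 4.3.3 (eBayes with trend). Benjamini-Hochberg adjustment ran over all of them. With 3 against 3 libraries an exact permutation test cannot go below 0.1, and that floor was reached by each of the 13 carriers whose groups did not overlap. Levels per kb use the principal transcript of GENCODE M21 (GRCm38), another build than mm39, used for lengths, symbols and chromosomes. Promoter sequences are RefSeq's on GRCm38.p6. The fit was tested on simulated data.

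Sample values were given for members past the threshold, for the 6 most abundant and for paralogs of named genes, and up to 4 members of each pathway list were named by adjusted p. Slc25a10, Slc25a43 and others outside that rule were chosen after their values were seen. A result on 1 carrier that did not pass is not reported here, though the gene is included in the counts. Members, lists and alternatives were chosen with earlier results of these data known. Each control has a labelled knockout with the next number (216 and 217, 241 and 242, 250 and 251). They were taken as pairs by these numbers, not by a stated litter. Deviations from group means correlated by 0.37, 0.23 and 0.36 in these pairs, and by -0.28 to -0.07 in the other pairings. The correlations are not independent of each other. In the fit with knockout 1 alone the spread comes from the controls, and the lone library is assumed to vary like them.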

Additional observations from a re-analysis of the deposited data

How the results depend on the processing

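Of the 9 carrier calls, Slc25a24, Slc25a12, Slc25a39 and Slc25a51 held in all 17 alternative fits, and the other 5 were lost in some, as given above. No call reversed. Signs of carriers that passed in neither fit differed from the reported ones in 32 of 561 values. With library totals set equal, carriers were 3 higher and 6 lower with a median of -0.49, and 1440 genes in all were higher. With knockout 1 alone, 4 carriers passed, 3 higher and 1 lower, with a median of 0.01, against 2711 genes in all, 1305 of them higher. Leaving out 1 library gave 4 to 10 carriers, 3 to 6 higher and 1 to 4 lower, beside 2631 to 4464 genes in all, 1515 to 2300 higher and 1107 to 2164 lower. Related pathway genes were then lower for 14 to 23. With a replicate block on the adjacent numbers, 11 carriers passed, 7 higher and 4 lower, beside 5781 genes in all. The block added Slc25a25 and Slc25a16 and changed no other Slc25a call, and it added Ucp2 among related genes (adjusted p = 0.00462). The cause of these shifts was not tested, beyond the smaller number of libraries. Adding the Ucp and Mtch genes gave 10 calls. Estimated depth limits the members with few reads, such as Slc25a10 and Slc25a33, and smaller changes may be missed in 3 against 3 libraries.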
